A study of Caenorhabditis elegans with 6 samples.

Results

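The genes described here encode lipases and lipid-binding proteins of Caenorhabditis elegans. They were chosen by symbol: every gene named lipl, lips, lbp, far or fil with a number in the array annotation, together with atgl-1 and hosl-1. This gave 45 genes out of 17118 genes measured, all 45 genes that the RefSeq gene table names in this way. They comprise 4 lipases of fat stores and of fasting (atgl-1, hosl-1, fil-1 and fil-2), 8 lipl, 16 lips, 9 lbp and 8 far genes, and 2 of the lips genes, lips-14 and lips-16, are pseudogenes in that table.

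Messenger RNA was measured in whole adult hermaphrodites of the strain fer-15(b26), which is fertile at low temperature and makes defective sperm at 25 °C. Eggs were placed on agar with 250 µM tyrosol, a phenolic alcohol of olive oil, or on agar with the vehicle alone, and worms stayed on it at 25 °C until collection on day 4 of adulthood. Both groups carried the fer-15(b26) allele, received ethanol at 0.1% and ate the same Escherichia coli strain, OP50. There were 3 tyrosol arrays and 3 control arrays (Affymetrix C. elegans Genome Array), and since the labels do not say that the replicates came from separate cultures, p-values measure only the spread between these arrays.

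Animals store fat as triglyceride in lipid droplets and, in worms, mainly in the intestine and epidermis. Lipases at the droplet surface and acid lipases in the lysosome release fatty acids from it, and small binding proteins carry the fatty acids through the cytosol, into the nucleus or between tissues. In C. elegans this route is known for its ties to fasting and to lifespan: the lysosomal lipase LIPL-4 and the carrier LBP-8 act together in a signal from lysosome to nucleus that lengthens life when raised.

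No member passed the tests of a difference between worms on tyrosol and control worms. Values are log2 expression after RMA, the normalisation used by the authors, so a difference of 1 is a doubling. The rank product, the authors' test, called 0 of the 45 genes at an estimated false discovery rate under 0.05, beside 0.936% of all 22548 probe sets. Limma, a linear model across all probe sets, called 0 of 45 at a Benjamini-Hochberg adjusted p under 0.05, beside 0.337% of all probe sets. With the replicate number as a block limma called 0.723% of all probe sets and again 0 members. At an unadjusted limma p under 0.05 stood 7 of the 45 members (15.6%), beside 7.33% of all probe sets.

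The differences of the 45 genes ran from -0.45 for far-3 to 0.55 for lipl-7, with 23 above 0 and 22 below. Their median was 0.014, beside -0.021 over all probe sets. The 95% interval of the limma difference lay within 2-fold in either direction for all 45 genes and within 1.5-fold for 38. Of these 38, 14 were among the 16 genes below the median of every array, where a faint signal may hide a change. Standard errors ran from 0.087 to 0.284 on the log2 scale. In 7 of the 45 genes (15.6%) every tyrosol value lay on one side of every control value, as it did in 13.4% of all probe sets. Of these 4 were higher with tyrosol, lipl-5, lipl-7, lbp-8 and far-8 (background 6.75%), and 3 were lower, fil-2, lips-10 and far-3 (background 6.64%). The share of members whose groups did not overlap is thus near that of the whole array.

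**Figure D1:**
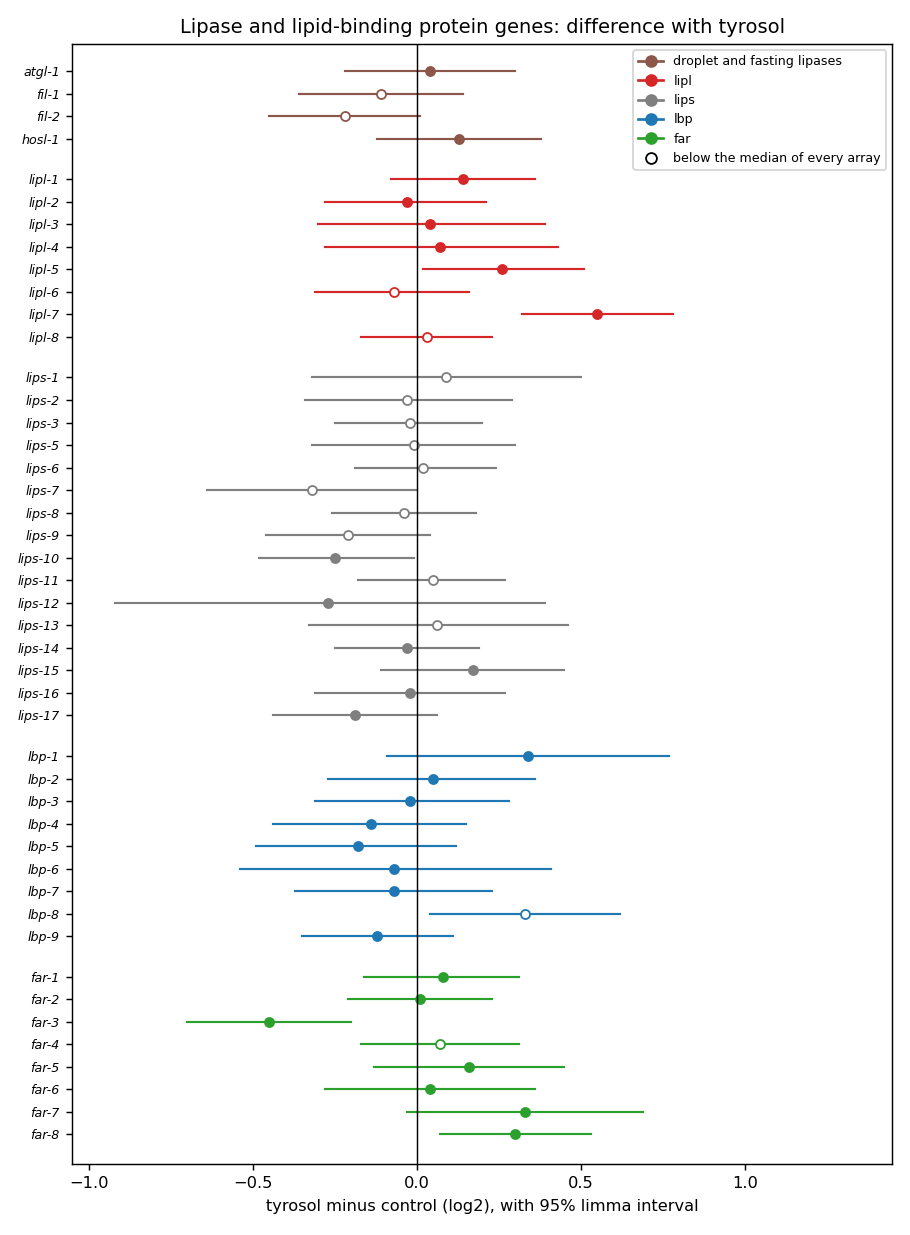
Difference between tyrosol and control worms on the log2 scale (horizontal axis) for each of the 45 genes, with the 95% limma interval as a line, grouped by family from top to bottom. Open circles mark the 16 genes whose values lay below the median of every array. The gene farthest to the right is lipl-7 (0.55) and the one farthest to the left is far-3 (-0.45).

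Signal differed among the families. The array medians lay between 2.57 and 2.60 in tyrosol arrays and between 2.57 and 2.61 in control arrays. Of the 45 genes 24 lay above the median of every array and 16 below it. Of the 16 lips genes 10 lay below it, against 1 of 9 lbp, 1 of 8 far and 2 of 8 lipl genes and both fil genes. Signals this faint may hide a change, which limits what these 16 genes can show.

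Beside the members, 3 features of the arrays and worms differed. Tyrosol replicate 2 had the largest spread around its group mean, with an SD of 0.21 over all probe sets against 0.11 to 0.15 for the other 5 arrays, and its bacterial control transcripts had a 3' signal 2.18 above the middle one, against 1.11 to 1.53. Of 26 measured sperm marker genes 20 were called higher with tyrosol by the rank product and 8 by limma. Their mean level was 4.50 to 4.63 in tyrosol arrays against 3.06, 3.86 and 3.19 in control replicates 1, 2 and 3. Of the 26 genes 21 were read on cross-hybridising probe sets. Of 17 epidermal markers the rank product called 4 higher and limma 1. Their mean level was 4.21 to 4.26 against 3.87, 4.08 and 3.93 in control replicates 1, 2 and 3. Of 15 intestinal markers both called 0 (6.09 to 6.27 against 6.22 to 6.30), with 2 at an unadjusted limma p under 0.05. The rank product called 1 of 16 neuronal markers and 0 of 16 muscle, 10 pharyngeal, 18 oocyte and germ line and 6 coelomocyte and gonad sheath markers. An unadjusted limma p under 0.05 was reached by 21 sperm, 5 epidermal, 2 neuronal and 4 muscle markers (background 7.33%). It was reached by 2 pharyngeal, 0 oocyte and 1 coelomocyte and gonad sheath markers. In 6 of the 16 muscle markers (37.5%, background 13.4%) the groups did not overlap, 5 higher and 1 lower. Of the muscle differences 12 were above 0 and 4 below, and of the 18 oocyte and germ line ones 4 above and 14 below. The part of these features in the values below was not tested. In RNA from whole worms, fewer cells of a type and less RNA per cell cannot be told apart.

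On their representing probe sets the droplet lipase genes atgl-1 and hosl-1 differed by 0.04 and 0.13, and their other probe sets differed by more. ATGL-1, the worm counterpart of adipose triglyceride lipase, takes the first fatty acid from stored triglyceride. On its representing probe set atgl-1 read 6.88, 6.54 and 6.71 in tyrosol replicates 1, 2 and 3, and 6.75, 6.57 and 6.69 in the control replicates. The groups overlapped, and the difference was 0.04 (SE 0.113, 95% interval -0.22 to 0.30, limma adjusted p = 0.97).

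Another probe set of atgl-1 read 6.40, 5.35 and 6.48 with tyrosol against 6.48, 6.37 and 6.29 in controls, and a fainter one read 3.45, 2.88 and 3.55 against 3.59, 3.17 and 3.55. On all 3 probe sets of atgl-1 the lowest tyrosol value was that of replicate 2, and the gap was widest for the probe set at 5.35. Control replicate 2 was also the lowest of its group on the representing probe set (6.57) and on the faint one (3.17). On the probe set between them (6.37) it was not. The bacterial control transcripts of tyrosol replicate 2 stood apart too, and their part in these values was not tested. The differences of the 3 probe sets were 0.04, -0.30 (SE 0.27) and -0.15 (SE 0.19), so the sign of atgl-1 depends on the probe set, and none passed.

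HOSL-1 is the worm hormone-sensitive lipase. The gene hosl-1 read 5.43, 5.47 and 5.40 in tyrosol worms and 5.41, 5.11 and 5.40 in control worms, a difference of 0.13 (SE 0.108, limma adjusted p = 0.85). Its values in the tyrosol group were close together, and control replicate 2 was lower than the other 5 arrays. Without that array the difference was 0.034. The other probe set of hosl-1 differed by 0.24 (SE 0.12), on the same side.

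**Figure D2:**
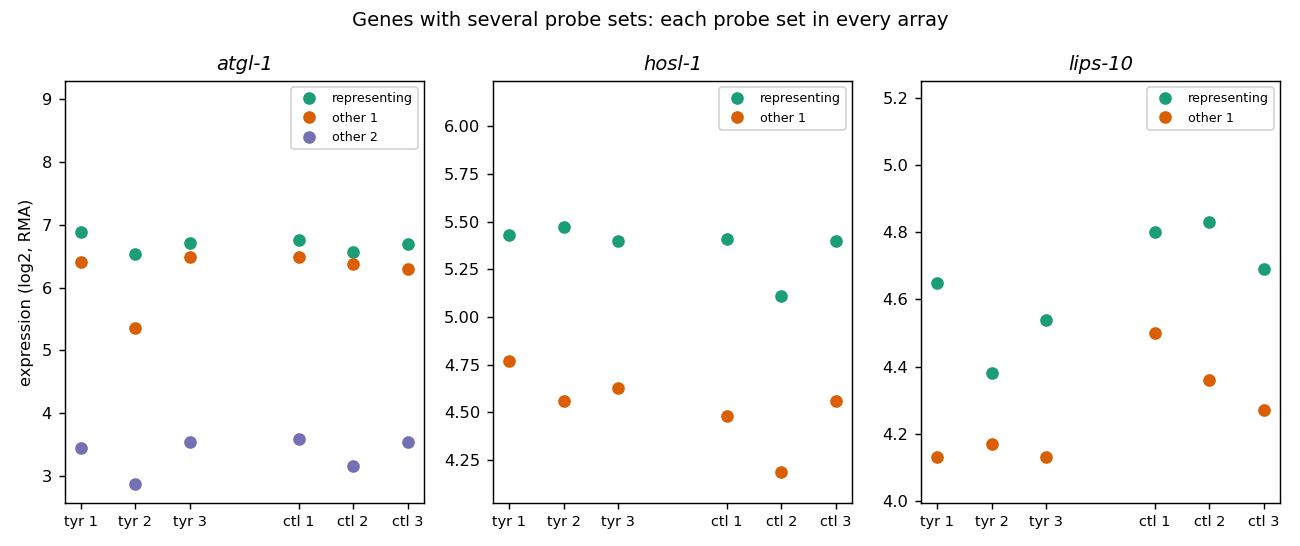
Log2 expression (vertical axis) in every array (horizontal axis, tyrosol arrays left of control arrays) for the 3 genes with more than 1 probe set, atgl-1, hosl-1 and lips-10. Colours mark the probe sets, the representing one in green. The second atgl-1 probe set drops to 5.35 in tyrosol replicate 2, while the lips-10 probe sets both have all tyrosol values below all control values.

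The genes fil-1 and fil-2 encode intestinal lipases that are induced in fasted worms. Both were faint here. The values of fil-1 were 2.01, 2.22 and 1.93 with tyrosol and 2.18, 2.07 and 2.25 without. Those of fil-2 were 1.74, 1.99 and 1.94 with tyrosol and 2.07, 2.18 and 2.07 without. The groups did not overlap for fil-2, which differed by -0.22 (SE 0.101, limma adjusted p = 0.71), and overlapped for fil-1, which differed by -0.11 (SE 0.108).

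The lipl genes, which encode relatives of mammalian lysosomal acid lipase, held the largest difference of all 45 genes. The gene lipl-7 read 5.83, 6.01 and 5.82 in tyrosol worms, against 5.43, 5.24 and 5.33 in control worms. Every tyrosol value of lipl-7 lay above every control value, with a clear gap. The means were 5.88 ± 0.11 and 5.33 ± 0.09 (log2, SD, n = 3 each), a ratio of 1.47. The difference of 0.55 (SE 0.100, 95% interval 0.32 to 0.78) did not pass limma (adjusted p = 0.085) or the rank product (false discovery rate 0.093). Over 13 alternatives the difference of lipl-7 ran from 0.44 to 0.60, the adjusted p from 0.07 to 0.36 and the false discovery rate from 0.067 to 0.43.

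LIPL-5 is a lipase whose transcript responds to starvation. The gene lipl-5 read 7.02, 7.13 and 7.21 in tyrosol worms and 6.90, 6.96 and 6.70 in control worms. Its groups did not overlap either, though tyrosol replicate 1 and control replicate 2 lay close together. The difference was 0.26 (SE 0.106, limma adjusted p = 0.64). The gene lipl-1 differed by 0.14 (SE 0.096): tyrosol values were 6.48, 6.47 and 6.42, control values 6.23, 6.45 and 6.27.

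The best studied lysosomal lipase genes did not separate the groups. LIPL-4 lengthens life when overproduced. The gene lipl-4 read 2.24, 2.65 and 2.37 in tyrosol worms against 2.19, 2.62 and 2.22 in control worms. Replicate 2 was the highest in both groups, by more than the groups differed (0.07, SE 0.153). Transcripts of lipl-2 and lipl-3 increase in fasted worms through HLH-30, the worm TFEB, and are held down in fed worms by MXL-3. The gene lipl-3 read 3.40, 3.46 and 3.96 with tyrosol and 3.53, 3.62 and 3.53 in controls, so that tyrosol replicate 3 alone stood above the rest. The gene lipl-2 read 5.26, 5.2 and 5.43 with tyrosol and 5.31, 5.45 and 5.22 in controls, with overlapping groups and a difference of -0.03 (SE 0.106). The remaining lipl-6 and lipl-8 lay below the median of every array and differed by -0.07 and 0.03. Over the 8 lipl genes 6 differences were above 0, with a median of 0.059.

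**Figure D3:**
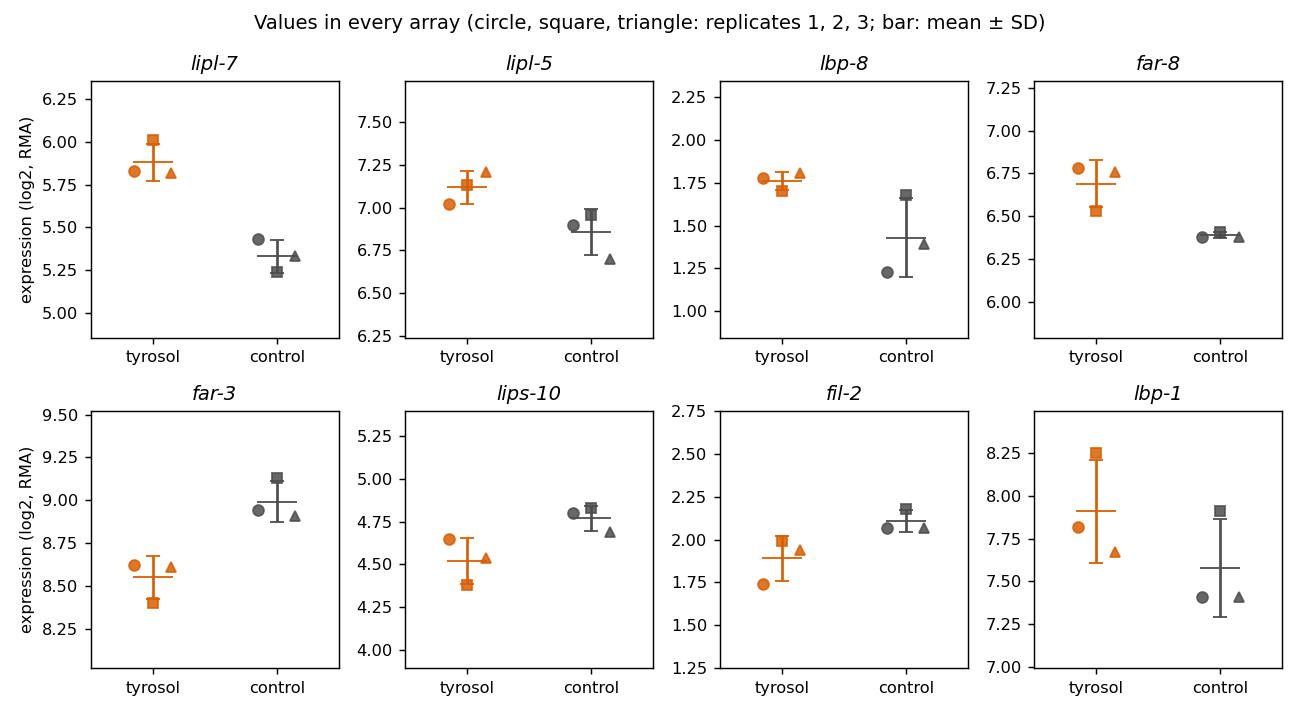
Log2 expression in every array for the 7 genes whose groups did not overlap and for lbp-1, with tyrosol at the left and control at the right of each panel. Circles, squares and triangles are replicates 1, 2 and 3, bars are mean ± SD, and each panel spans the same range of 1.5. The gap is widest for lipl-7, and in lbp-1 the squares are the highest in both groups.

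The lips genes, named for their likeness to lipases and mostly without a studied function, had 5 differences above 0 and 11 below, with a median of -0.025. The median was close to that of all probe sets, -0.021. The share above 0, 5 of 16, was lower than the 43.8% of all probe sets. The only lips gene with separate groups was lips-10, at 4.65, 4.38 and 4.54 in tyrosol worms and 4.80, 4.83 and 4.69 in control worms. It differed by -0.25 (SE 0.103, limma adjusted p = 0.65). Its other probe set read 4.13, 4.17 and 4.13 against 4.50, 4.36 and 4.27, also without overlap, and differed by -0.23 (SE 0.09). Both probe sets of lips-10 thus gave the same direction at a similar size. Without both replicate 2 arrays the difference was -0.15.

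The largest lips difference was that of the faint lips-7, at 1.66, 1.81 and 1.97 with tyrosol against 1.91, 2.36 and 2.13 in controls (-0.32, SE 0.138, limma adjusted p = 0.68). Its groups overlapped by tyrosol replicate 3 and control replicate 1. The most variable member was lips-12, with 1.54, 2.60 and 2.15 against 2.60, 2.60 and 1.88 and the largest standard error of the 45 genes, 0.284. It lies between lips-11 and lips-13 on chromosome II, whose differences were 0.05 and 0.06.

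The lbp genes encode small carriers of the fatty acid-binding protein family, which hold a fatty acid inside a barrel of strands. LBP-8 shuttles a lipid messenger from the lysosome to nuclear receptors in the intestine. The gene lbp-8 read 1.78, 1.70 and 1.81 in tyrosol worms and 1.23, 1.68 and 1.39 in control worms. The groups did not overlap, but control replicate 2 came within 0.02 of the tyrosol value of the same number. The difference was 0.33 (SE 0.126, limma adjusted p = 0.61), measured below the median of every array on a cross-hybridising probe set. The gene lbp-7, on the same chromosome with 3 genes between, was read at a higher signal and differed by -0.07 (SE 0.130).

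LBP-3 is a secreted member that carries a lipid signal from the gut to neurons. The gene lbp-3 read 5.73, 6.05 and 5.72 in tyrosol worms and 5.79, 6.03 and 5.73 in control worms, the same pattern in both groups, and differed by -0.02 (SE 0.129). The gene lbp-5 read 4.00, 4.22 and 3.95 with tyrosol and 4.23, 4.46 and 4.04 in controls (-0.18, SE 0.131, and -0.076 without control replicate 2). Again the groups overlapped and replicate 2 was the highest in each.

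The gene lbp-1 lies beside lbp-2 and lbp-3 on the X chromosome. It read 7.82, 8.25 and 7.67 in tyrosol worms and 7.41, 7.91 and 7.41 in control worms. Each tyrosol value exceeded the control value of the same number, by 0.41, 0.34 and 0.26, and the groups overlapped only through control replicate 2. The difference of 0.34 had an SE of 0.186 and an unadjusted limma p of 0.11, which became 0.0081 with the replicate block. Adjusted over all probe sets neither passed (0.76 and, with the block, 0.29). The difference of lbp-1 was 0.17 without tyrosol replicate 2, 0.50 without control replicate 2 and 0.34 without both. Its neighbours lbp-2 and lbp-3 differed by 0.05 and -0.02.

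Replicate 2 was the highest array of its group in 8 of the 9 lbp genes with tyrosol and in 9 of 9 in controls, and in both groups at once in 8 of 9 (88.9%). Over all probe sets this held for 19.9%, and for 22.3% of those above every array median. The pattern was noticed after the values were seen. Replicate 2 exceeded the mean of the other 2 arrays of its group by -0.09 to 0.62 in tyrosol worms (median 0.30) and by 0.17 to 0.50 in control worms (median 0.32). The widest gap with tyrosol was that of lbp-6 (0.62, and 0.41 in controls), and the widest in controls was that of lbp-1 (0.50 in each group). The median difference between the treatments over the 9 genes was -0.065, and its sign rested on single arrays: it was 0.07 without control replicate 2 and 0.042 without tyrosol replicate 3. In the far genes replicate 2 was the highest in both groups in 5 of 8, in the lipl genes in 2 of 8 and in the lips genes in 2 of 16.

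**Figure D4:**
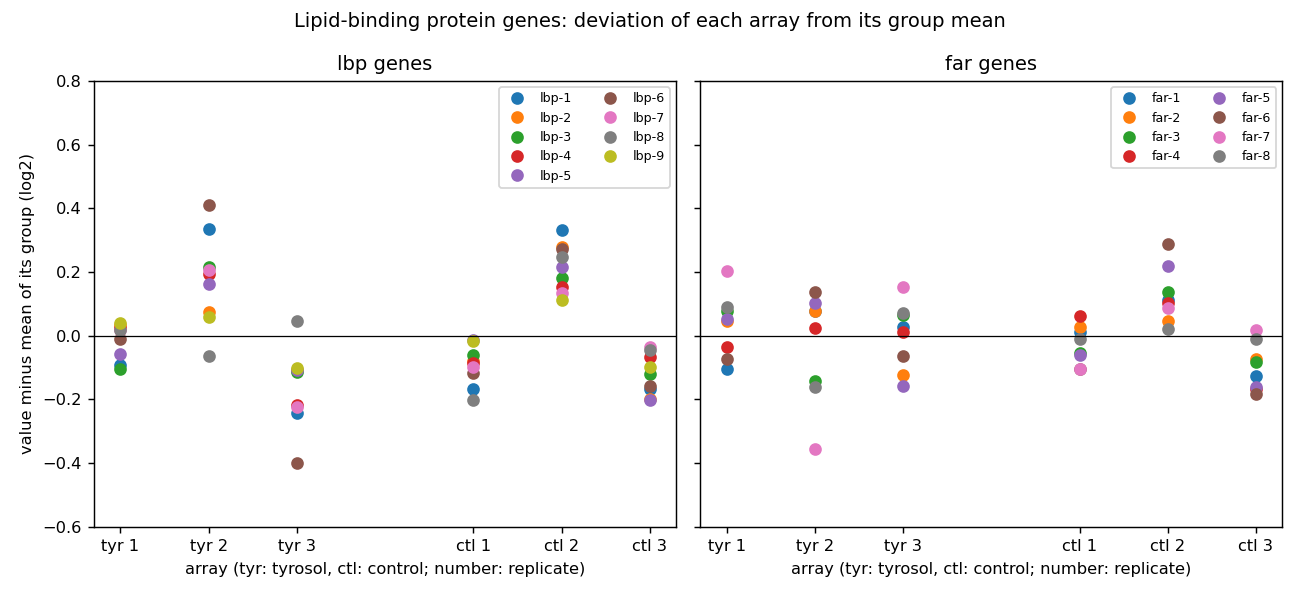
Log2 value of each array minus the mean of its group (vertical axis) for the 9 lbp genes (left) and the 8 far genes (right), with tyrosol arrays left of control arrays on the horizontal axis. Each colour is a gene. The lbp points of replicate 2 lie above 0 in both groups except lbp-8 with tyrosol, and far-3, far-7 and far-8 lie below 0 in tyrosol replicate 2.

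The far genes encode fatty acid- and retinol-binding proteins, a helical, mostly secreted family found in nematodes. The gene far-3 had the largest difference below 0 of all 45 genes. It read 8.62, 8.40 and 8.61 in tyrosol worms, against 8.94, 9.13 and 8.91 in control worms. All tyrosol values of far-3 lay below all control values, with the widest distance between the replicate 2 arrays. The means were 8.55 ± 0.13 and 8.99 ± 0.12 (log2, SD, n = 3 each), a ratio of 0.73. The difference of -0.45 (SE 0.108, 95% interval -0.70 to -0.20) did not pass limma (adjusted p = 0.23) or the rank product (false discovery rate 0.60). Without both replicate 2 arrays it was -0.31.

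Beside far-3 on chromosome V lie far-4 and far-5, which differed by 0.07 (SE 0.102) and 0.16 (SE 0.126). Both were read at a low signal, and far-4 lay below the median of every array. The gene far-8 read 6.78, 6.53 and 6.76 in tyrosol worms and 6.38, 6.41 and 6.38 in control worms. The controls were nearly identical and all 3 tyrosol values lay above them, at a difference of 0.30 (SE 0.099, limma adjusted p = 0.49). The gene far-7 read 4.88, 4.32 and 4.83 against 4.24, 4.43 and 4.36, and differed by 0.33 (SE 0.155, limma adjusted p = 0.72). Its groups overlapped through tyrosol replicate 2 alone, which lay 0.54 below the mean of the other tyrosol arrays. The difference of far-7 was 0.51 without that array and 0.55 without both replicate 2 arrays.

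The neighbours far-1 and far-2 on chromosome III had level values. The gene far-1 read 9.79, 9.97 and 9.92 in tyrosol worms and 9.83, 9.93 and 9.69 in control worms (0.08, SE 0.102). The gene far-2 read 10.99, 11.02 and 10.82 against 10.96, 10.98 and 10.86 (0.01, 95% interval -0.21 to 0.23). Of the 8 far genes 7 differed by more than 0, beside 43.8% of all probe sets. Their median of 0.075 was 0.0011 without control replicate 3 and 0.16 without control replicate 2.

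The labels do not pair the arrays, and pairs by replicate number were inferred from the values. By these pairs 19 of the 45 genes (42.2%) had all 3 differences of one sign, beside 32.2% of all probe sets. Of these 10 were higher (background 13.9%) and 9 lower (background 18.3%). The 4 lipl genes among them, lipl-1, lipl-4, lipl-5 and lipl-7, were all higher with tyrosol. At an unadjusted limma p under 0.05 with the block stood 7 of the 45 members, beside 9.85% of all probe sets, a share of 15.6% by either fit.

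The genes that act on or with these lipases and carriers were counted in 5 lists. Of 25 regulators of lipase expression and activity, 21 genes of lipid droplets and triglyceride synthesis, 17 of lipoprotein and sterol transport and 20 other lipases, phospholipases and amidases, the rank product called 0 (background 0.936%) and limma 0, with 3, 0, 1 and 0 genes at an unadjusted limma p under 0.05. Of 25 genes used as readouts of fasting or of the nuclear receptor NHR-49, the rank product called 1, acs-2, and limma 0. In this list 2 genes had an unadjusted limma p under 0.05 (background 7.33%), fmo-2 (-0.29, SE 0.087) and acdh-1 (-0.24, SE 0.090). Both were lower with tyrosol, with no overlap between the groups, and neither was called. Over the list 11 differences were above 0 and 14 below. The medians of the 5 lists lay between -0.035 and 0.058.

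The gene acs-2 encodes an acyl-CoA synthetase that feeds fatty acids into mitochondrial oxidation and is induced through NHR-49 in fasted worms. It read 7.43, 6.74 and 7.14 in tyrosol worms and 6.80, 5.42 and 6.83 in control worms. Replicate 2 was the lowest array in each group, the opposite of the lbp genes, and the groups overlapped. The rank product called acs-2 higher by 0.76 (SE 0.365, false discovery rate 0.011) and limma did not (adjusted p = 0.73). Without control replicate 2 the difference was 0.29 and the call was lost, as it was without tyrosol replicate 1 (0.59), without tyrosol replicate 3 (0.74) and without both replicate 2 arrays (0.48).

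The other genes known for this route were not called. The gene nhr-49 read 8.52, 8.48 and 8.40 in tyrosol worms and 8.32, 8.26 and 8.33 in control worms, without overlap and with a difference of 0.16 (SE 0.087, limma adjusted p = 0.76). With the mean of its probe sets nhr-49 differed by 0.056. Its partner nhr-80 read 3.31, 4.13 and 3.55 in tyrosol worms and 3.50, 3.10 and 3.22 in control worms. That difference of 0.39 (SE 0.205) rested on replicate 2: it was 0.16 without tyrosol replicate 2 and 0.07 without both replicate 2 arrays.

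The gene hlh-30 read 5.25, 5.02 and 4.57 in tyrosol worms and 4.72, 4.52 and 4.63 in control worms. It differed by 0.32 (SE 0.168), by 0.17 without tyrosol replicate 1 and by 0.03 with the mean of its probe sets. The gene mxl-3 read 3.11, 2.91 and 2.95 against 2.88, 2.49 and 3.06, and differed by 0.18 (SE 0.149), or by 0.024 without control replicate 2. The groups overlapped for nhr-80, hlh-30 and mxl-3, and their differences changed with single arrays.

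The desaturase gene fat-7, a target of NHR-49 and NHR-80, read 3.56, 2.99 and 3.56 in tyrosol worms and 3.55, 3.92 and 3.58 in control worms. Replicate 2 alone carried its difference of -0.31 (SE 0.178), since the same-number differences were 0.01, -0.93 and -0.01. The gene vit-2, which encodes a yolk protein, read 10.01, 9.96 and 9.86 against 10.02, 9.90 and 9.91, and differed by 0.0015 (SE 0.092).

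Chosen after its values were seen, mdt-15 had the largest difference below 0 in the 5 lists. It encodes the Mediator subunit that works with NHR-49 and SBP-1 on genes of fat metabolism. Its values were 4.01, 4.26 and 4.34 in tyrosol worms and 4.72, 5.09 and 4.57 in control worms, with no overlap. The difference was -0.59 (SE 0.152, limma adjusted p = 0.29, rank product false discovery rate 0.39). Chosen in the same way, elt-2, which encodes the GATA factor of the intestine, read 2.88, 2.87 and 2.93 in tyrosol worms against 3.24, 3.10 and 3.20 in control worms, and differed by -0.29 (SE 0.088, limma adjusted p = 0.44). With the mean of its probe sets elt-2 differed by -0.046. In the list of 25 regulators 15 differences were above 0 and 10 below. Also named after its values were seen, nhr-25 of that list differed by 0.35 (SE 0.134, limma adjusted p = 0.61), without overlap. The gene lrp-2, chosen in the same way, encodes a relative of the LDL receptor and stood above 0. It read 5.66, 5.33 and 5.70 in tyrosol worms against 5.07, 5.01 and 5.24 in control worms. Its difference was 0.46 (SE 0.125, limma adjusted p = 0.33), and 0.24 with the mean of its probe sets.

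**Figure D5:**
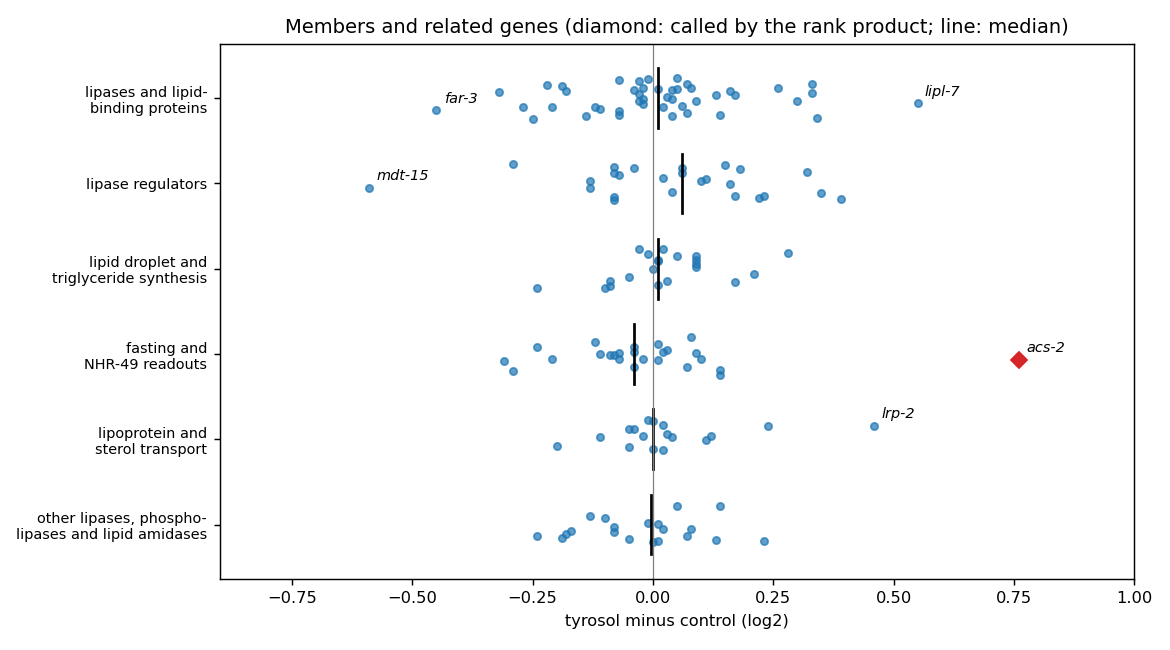
Difference between tyrosol and control worms on the log2 scale (horizontal axis) for the 45 lipase and lipid-binding genes (top row) and for the genes of 5 related lists. Points are genes, a diamond is a gene called by the rank product and the upright line is the median of a row. The single diamond is acs-2 at 0.76, and mdt-15 lies farthest to the left at -0.59.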

How the data were processed

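The log2 expression values were deposited by the authors. Per the series' design text they were made with RMA, which subtracts background, normalises arrays to a common distribution and summarises the probes of a set. Its version was not given, and base 2 was inferred from a range of 0.47 to 12.53. The table holds 22625 probe sets, of which 77 control probe sets were left out and 22548 were tested. Gene names came from the platform annotation and were updated by gene number from RefSeq (WBcel235, used for names and gene order alone): 20766 probe sets name 1 gene, 887 several and 895 none. Each gene is represented by its brightest probe set, by the mean of the 6 arrays. Probe sets ending in _x_at or _f_at are called cross-hybridising. For arrays, their number limits the precision: the median standard error was 0.12.

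The rank product named by the authors was written anew in Python 3.11.15 (numpy 2.4.6): 9 tyrosol-minus-control differences, 100 permutations within arrays. Limma 3.58.1 in R 4.3.3 (lmFit, eBayes, two-sided) gave differences, standard errors and adjusted p-values over all probe sets. Both were also run on simulated arrays with independent noise, where every planted difference was larger than that of any member. Those runs therefore do not show how well either finds differences of the size seen in the members. No other test was run on the gene families.

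No 2 arrays held identical values. The titles give both groups replicates 1, 2 and 3, and deviations from the group means correlated between equal numbers (r = 0.112, 0.374 and 0.261 over all probe sets), so the numbers were taken to pair the arrays. The pairing comes from the values, not from the labels, and tyrosol replicate 1 correlated more with control replicate 3 (r = 0.275). Over the members alone the equal-number r was -0.306, 0.437 and 0.128 for replicates 1, 2 and 3. There tyrosol replicate 1 correlated most with control replicate 3 (r = 0.498), so the members do not bear out the pair of replicate 1.

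The members, the related lists and the marker lists were chosen with earlier results of these data known. Values in every array are given for called members, the 3 largest differences of each family, and members with a studied role in lipolysis; of the related lists, for called genes and acs-2, fat-7, hlh-30, mxl-3, nhr-49, nhr-80 and vit-2; mdt-15, elt-2 and lrp-2 were added after their values were seen. Alternatives were limma, the replicate block, each array left out, both replicate 2 arrays left out, median centring, a second quantile normalisation, averaging of the probe sets of each gene, no cross-hybridising probe sets, only the upper part of mean levels, and another random seed. Scanner files were not used here, so background correction was not varied, and no sequences were printed.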

Additional observations from a re-analysis of the deposited data

How the results depend on the processing

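The count of called members was 0 under all 15 alternatives, and under the same alternatives the counts of the lists other than the fasting readouts were 0. For all probe sets the rank product called 211 (209 higher, 2 lower), 98 to 209 without single arrays (112, 134 and 98 without tyrosol replicate 1, 2 or 3), 105 without both replicate 2 arrays and 76 by limma (163 by limma with the replicate block). The fasting readouts held 1 call, 0 to 1 without single arrays, 0 without both replicate 2 arrays and 0 by limma. The members whose groups do not overlap numbered 7, and 8 to 14 without single arrays, where 20.6% to 26.1% of all probe sets were separate. They numbered 22 without both replicate 2 arrays (39.3% of all probe sets). By same-number pairs, an alternative added after the data were seen, 19 had 1 sign. With the replicate block the rank product called 233 (227 higher, 6 lower), and the counts of called members and of calls in the 5 related lists did not change.

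The median of the droplet and fasting lipases, -0.035, became -0.11 without both replicate 2 arrays, -0.12 with the mean of the probe sets and 0.086 in the upper part of mean levels, where 2 of the 4 genes remain. The lipl median of 0.059 was 0.013 to 0.14 without single arrays and 0.14 in the upper part of mean levels. Without single arrays the lips median ran from -0.077 to -0.0084 and the far median from 0.0011 to 0.16. The lbp median of -0.065 ran from -0.15 to 0.07 and the median of all 45 genes, 0.014, from -0.02 to 0.039. The cause was not tested for any of these.

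Of 409 repeats for 32 named genes, 23 changed sign and 0 gained a limma call. Without single arrays atgl-1 ran from -0.045 to 0.12, lipl-2 from -0.098 to 0.031, lipl-3 from -0.13 to 0.15, lipl-4 from -0.04 to 0.21, lips-12 from -0.52 to 0.012, lbp-3 from -0.12 to 0.076, far-2 from -0.024 to 0.075 and vit-2 from -0.034 to 0.043. With the mean of the probe sets atgl-1 was -0.14. Without both replicate 2 arrays lipl-2 was 0.079, far-2 was -0.0015 and vit-2 was -0.026. After a second quantile normalisation lbp-3 was 0.0072. With 3 arrays a group and 16 of the 45 genes below the median of every array, small changes in faint genes cannot be seen.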
